A study of Mus musculus with 18 samples.

Results

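The genes of fatty acid oxidation were followed in the slow postural calf muscle soleus and the fast extensor digitorum longus (EDL) of mice. The list has 32 genes, 20 that carry fatty acids into the muscle fibre and burn them in mitochondria and 12 of the peroxisome, and its members were found by gene symbol among the 12393 genes that the arrays name through a probe set of their own. For each gene the probe set with the highest mean signal was used. Values were had for 31 of the 32 genes, 19 mitochondrial and 12 peroxisomal. The exception was Cpt1b, the muscle form of the outer carnitine palmitoyltransferase, whose probe set also names Chkb and Gm44502, so that its signal could not be given to Cpt1b.

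Adult male C57BL/N6 mice were flown on the Bion M1 biosatellite for 30 days (Bion flown, BF), kept on Earth in the same type of habitat (Bion ground, BG), or kept in ordinary animal facility cages (flight control, FC). Per the study's methods, BF and BG mice ate a paste food and FC mice standard chow, and BF mice travelled from the landing site before dissection. Food therefore cannot be told apart from group in comparisons with FC, nor landing and transport in comparisons of BF with ground mice. Gene expression was measured on 18 single-colour arrays, 3 for each muscle of each group, and every value below is a log2 signal from whole-muscle RNA. In whole muscle, fewer fibres or cells of a type and less RNA per cell cannot be told apart. BF vs. BG compares flight with the same housing, and BF vs. FC compares it with the animal facility. FC vs. BG compares the 2 ground housings, and soleus vs. EDL compares the muscles. A member passed at a limma adjusted p under 0.05, at any fold change. BF vs. BG and BF vs. FC share the BF arrays, and BF vs. BG and FC vs. BG share the BG arrays, so their values stand side by side and are not independent.

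Long-chain fatty acids are released at the capillary wall, taken up by the fibre, coupled to coenzyme A and passed through the carnitine shuttle into mitochondria, where a repeating spiral of dehydrogenation, hydration, a further dehydrogenation and thiolysis shortens them and hands electrons to the respiratory chain. Peroxisomes shorten very long and branched chains, use catalase to remove the hydrogen peroxide that this makes, and pass shortened chains on as carnitine esters. Slow oxidative muscles such as soleus are known for a higher capacity for this pathway than fast glycolytic muscles such as EDL, and many of its genes are known targets of the nuclear receptor PPAR alpha (gene Ppara).

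Promoters are shown for members whose transcripts moved in soleus. Hadha and Hadhb encode the alpha and beta subunits of the mitochondrial trifunctional protein and lie head to head on chromosome 5, on opposite strands, with 272 bases between their starts in the RefSeq annotation of GRCm38.p6. The stretch of 250 bases before the start of Hadhb, at chr5:30155003-30155252 on the plus strand, lies wholly between the 2 genes and serves as the upstream region of both:
Hadhb: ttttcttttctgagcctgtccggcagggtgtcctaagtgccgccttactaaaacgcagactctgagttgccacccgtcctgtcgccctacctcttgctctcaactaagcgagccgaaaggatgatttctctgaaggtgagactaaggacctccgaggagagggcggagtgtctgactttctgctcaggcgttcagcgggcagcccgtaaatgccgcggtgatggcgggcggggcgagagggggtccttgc
No letters are in capitals there because no motif searched for was found in it. The other 3 promoters, all on the minus strand, are those in which a direct repeat of AGGTCA with 1 base between, the element that PPAR alpha binds together with RXR, was matched with up to 2 mismatches on either strand. The match is in capitals. The gene names stand for chr2:103485154-103485403 (Cat, catalase), chr5:17835897-17836146 (Cd36, the fatty acid translocase) and chr9:55512244-55512493 (Etfa, an electron transfer flavoprotein subunit), each the 250 bases before the start:
Cat: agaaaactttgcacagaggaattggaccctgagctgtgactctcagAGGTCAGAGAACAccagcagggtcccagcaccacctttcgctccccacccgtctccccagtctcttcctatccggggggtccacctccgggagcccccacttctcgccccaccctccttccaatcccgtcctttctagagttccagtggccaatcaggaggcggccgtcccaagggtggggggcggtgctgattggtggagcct
Cd36: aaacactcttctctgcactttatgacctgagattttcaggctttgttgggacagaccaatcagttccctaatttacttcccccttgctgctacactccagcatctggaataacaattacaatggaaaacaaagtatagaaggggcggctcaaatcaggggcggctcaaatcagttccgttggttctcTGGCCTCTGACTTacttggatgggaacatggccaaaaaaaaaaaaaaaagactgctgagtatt
Etfa: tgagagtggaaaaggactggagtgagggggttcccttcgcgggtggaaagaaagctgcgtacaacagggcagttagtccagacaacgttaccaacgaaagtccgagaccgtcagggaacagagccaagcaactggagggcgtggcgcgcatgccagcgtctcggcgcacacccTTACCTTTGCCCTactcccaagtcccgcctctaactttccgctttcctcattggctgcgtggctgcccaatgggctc
RefSeq promoter windows, from 250 bases before to 50 after the start, were at hand for 23 of the 31 members, in 25 windows. The direct repeat was matched in 3 of the 25 windows, or 12%, and in 3.86% of the 32851 windows of all genes. The single element AGGTCA, which the repeat contains, was matched on either strand in 5 of the 25 windows (Cat, Acadm, Cd36, Ddo and Acadvl), or 20%, against 16.3% of all windows. TNAAGGTCA, the longer element known for estrogen-related receptors, which also contains AGGTCA, was in none of the 25 and in 1.28% of all windows. These matches describe letters only.

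The muscles were checked by fibre markers before the members were compared. The mean of 10 slow fibre markers ran from 13.43 to 13.55 in the 6 ground soleus arrays and from 7.40 to 10.57 in the 9 EDL arrays, so the labels of the 2 muscles were borne out. BG soleus replicate 2 stood apart from the other BG soleus arrays. It was the highest of the 3 for 28 of the 31 members, and its Myh4, the fast IIb myosin, read 12.15 where the others read 7.68 and 8.71. Its Ppargc1a, the gene of the coactivator PGC-1 alpha, read 9.83 where the others read 11.85 and 11.03. Counts of members and gene lists for BF vs. BG in soleus are therefore also given without it. The share of all genes was not counted without it. FC EDL replicate 3 had the lowest slow fibre markers, 7.40 where the other 2 FC EDL arrays had 10.53 and 10.42.

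Fatty acid oxidation genes were lower in soleus of BF mice than in soleus of both ground groups, in the mitochondrial and in the peroxisomal set. The mean log2 signal over the 19 mitochondrial members was 10.84, 10.82 and 11.13 on the BF soleus arrays. On the BG soleus arrays it was 11.60, 12.03 and 11.66, and on the FC soleus arrays 11.64, 11.55 and 11.68. In EDL it was 11.01, 10.85 and 11.12 for BF, 10.96, 11.28 and 11.04 for BG, and 10.97, 10.89 and 10.74 for FC. The BF soleus arrays thus lay below all 6 ground soleus arrays and in the range of the EDL arrays. The peroxisomal members likewise had lower means in BF soleus (8.50, 8.34 and 8.61) than in BG soleus (8.98, 9.36 and 9.12) and FC soleus (9.09, 9.13 and 9.26). Their EDL means ran from 8.51 to 8.83 over all 3 conditions.

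**Figure D1:**
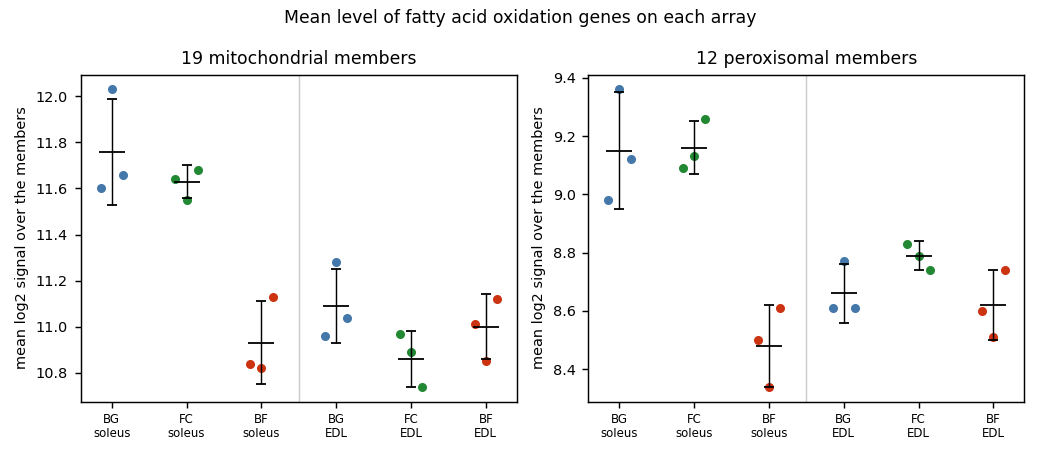
Mean log2 signal over the 19 mitochondrial (left) and the 12 peroxisomal members (right) on each array, by muscle and condition. Points are arrays, and the bar and whiskers are the mean and SD of 3 arrays. The 3 BF soleus arrays sit between 10.82 and 11.13 (mitochondrial) and between 8.34 and 8.61 (peroxisomal), below every ground soleus array.

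For BF vs. BG in soleus, 17 of 19 mitochondrial members passed as lower and none as higher, with a median log2 change of -0.78. Of the 12 peroxisomal members, 8 passed as lower and 1, Abcd2, as higher, with a median of -0.79. Among all 12393 genes, 12.3% passed as lower and 11.1% as higher, and the median change was 0.03. The study's own pathway lists, chosen on BF vs. BG in soleus of these arrays, hold 7 of the mitochondrial and 9 of the peroxisomal members, whose counts are therefore not independent evidence of direction. Of the 15 members outside those lists, 12 passed as lower (10 of 12 mitochondrial, 2 of 3 peroxisomal) and none as higher, with a median of -0.69. These 15 were also chosen with earlier results of these data known, so they are not independent evidence either. For BF vs. FC, 17 mitochondrial and 9 peroxisomal members passed as lower and 1 mitochondrial member, Acot2, as higher, with medians of -0.63 and -0.68, where 16.0% of all genes passed as lower and 9.02% as higher. For 26 members, 17 mitochondrial and 9 peroxisomal, all 3 BF soleus arrays read below all 6 ground soleus arrays, which held for 12.3% of all genes. The 5 exceptions were Etfdh, Acot2, Abcd2, Hsd17b4 and Acaa1a. Without BG soleus replicate 2, 16 mitochondrial and 7 peroxisomal members passed as lower and 1 as higher for BF vs. BG, and both medians were -0.63. Of the 15 members outside the study's lists 11 then passed as lower, and for 26 members the BF arrays still lay below the 5 other ground arrays. No share of all genes was counted without this array, so these counts have no background beside them.

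The 3 members of fatty acid uptake fell against BG. Lpl, the lipoprotein lipase that frees fatty acids at the capillary wall, read 12.70, 12.95 and 13.05 in BF soleus, 13.77, 13.80 and 13.79 in BG soleus, and 13.63, 13.63 and 13.72 in FC soleus. Its BG arrays lay close together, and all BF arrays lay below both ground groups. The log2 change was -0.89 ± 0.14 (SE) for BF vs. BG and -0.76 ± 0.14 for BF vs. FC. Fabp3, the fatty acid binding protein of heart and slow muscle, read 12.22, 12.32 and 12.66 in BF, 13.68, 13.98 and 13.61 in BG, and 13.55, 13.42 and 13.55 in FC. That is a fall of 2.57-fold against BG (limma adjusted p = 3.24e-05) and of 2.16-fold against FC, with no overlap between flown and ground arrays. Cd36 read 11.18, 11.54 and 11.60 in BF, 11.92, 12.43 and 12.22 in BG, and 11.73, 11.71 and 12.04 in FC. It passed against BG (log2 change -0.75 ± 0.16) and did not pass against FC (-0.38, 95% interval -0.71 to -0.06, limma adjusted p = 0.0834), although no BF array reached a ground array on this probe set. Its other probe sets changed by -0.86 and -1.10 against BG, but by 0.16 and -0.69 against FC, so the direction against FC depends on the probe set.

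Lpl is also made by adipocytes, and Cd36 by adipocytes and endothelial cells, and markers of both cell types moved in the same muscle. The mean of 10 adipocyte markers was 9.03 to 9.97 in BF soleus, 8.22 to 8.66 in BG and 8.55 to 8.79 in FC. Of these markers 5 passed as higher and 1 as lower for BF vs. BG, with Adipoq up by 2.34 and Lep by 2.96. Of all genes 11.1% passed as higher and 12.3% as lower in this comparison. The mean of 13 endothelial markers was 7.55 to 7.82 in BF soleus, 8.15 to 8.17 in BG and 8.14 to 8.27 in FC, and 5 of them passed as lower (Kdr -0.94, Vwf -0.92 and Flt1 -0.83 among them) and 1 as higher. The part of either cell type in the values of Lpl and Cd36 was not tested. Without the 3 uptake genes, 14 of the 16 other mitochondrial members passed as lower, with a median of -0.76, and 13 without BG soleus replicate 2. Without that array 4 adipocyte markers passed as higher and none as lower, and 4 endothelial markers passed as lower and 1 as higher.

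At the carnitine shuttle, Cpt2, which turns acylcarnitines back into acyl-CoA inside the mitochondrion, read 8.98, 8.66 and 9.36 in BF soleus. It read 9.98, 10.59 and 10.08 in BG soleus and 10.53, 10.27 and 10.66 in FC soleus. Every BF array was lower than every ground array, by 2.32-fold in the means against BG (limma adjusted p = 2.95e-04) and by 2.81-fold against FC (limma adjusted p = 4.07e-05). The probe set that Cpt1b shares with Chkb and Gm44502 changed by -0.83 for BF vs. BG.

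The acyl-CoA dehydrogenases open each turn of the spiral for chains of different length, and 3 of 4 passed as lower against BG and all 4 against FC. Acadvl, for very long chains, read 10.98, 10.86 and 11.01 in BF soleus, 11.59, 11.91 and 11.57 in BG, and 11.74, 11.72 and 11.75 in FC. Its flown arrays lay far below the tightly grouped ground arrays, with log2 changes of -0.74 ± 0.14 against BG and -0.78 ± 0.14 against FC. The medium-chain enzyme gene Acadm changed by -0.59 ± 0.11 and -0.50 ± 0.11, and the long-chain enzyme gene Acadl by -0.57 ± 0.12 and -0.35 ± 0.12, and both passed against each ground group. Acads, for short chains, read 8.85, 8.56 and 8.71 in BF, 9.12, 9.03 and 8.97 in BG, and 9.37, 9.23 and 9.14 in FC. Its arrays did not overlap either, but the change against BG, -0.33 with a 95% interval of -0.62 to -0.05, did not pass (limma adjusted p = 0.0844), while that against FC, -0.54 ± 0.13, did.

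All 4 members of the later steps of the spiral fell. Acaa2, the thiolase that splits off acetyl-CoA, read 9.70, 9.60 and 10.10 in BF soleus, 11.00, 11.66 and 11.11 in BG, and 11.42, 11.32 and 11.63 in FC. It was 2.74-fold lower than in BG (limma adjusted p = 4.37e-05) and 3.16-fold lower than in FC (limma adjusted p = 1.26e-05). Hadha, whose promoter stretch is printed above, read 10.15, 9.96 and 10.20 in BF, 11.12, 11.84 and 11.17 in BG, and 11.60, 11.73 and 11.80 in FC. Its head-to-head neighbour Hadhb read 11.71, 11.74 and 12.27 in BF, 12.74, 13.34 and 12.83 in BG, and 12.78, 12.65 and 12.90 in FC. Both subunits of the trifunctional protein fell with no overlap, Hadha by 2.42-fold and Hadhb by 2.1-fold against BG, and by 3.04-fold and 1.83-fold against FC. Hadh, the hydroxyacyl-CoA dehydrogenase for shorter chains, changed by -0.69 ± 0.11 against BG and -0.81 ± 0.11 against FC.

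**Figure D2:**
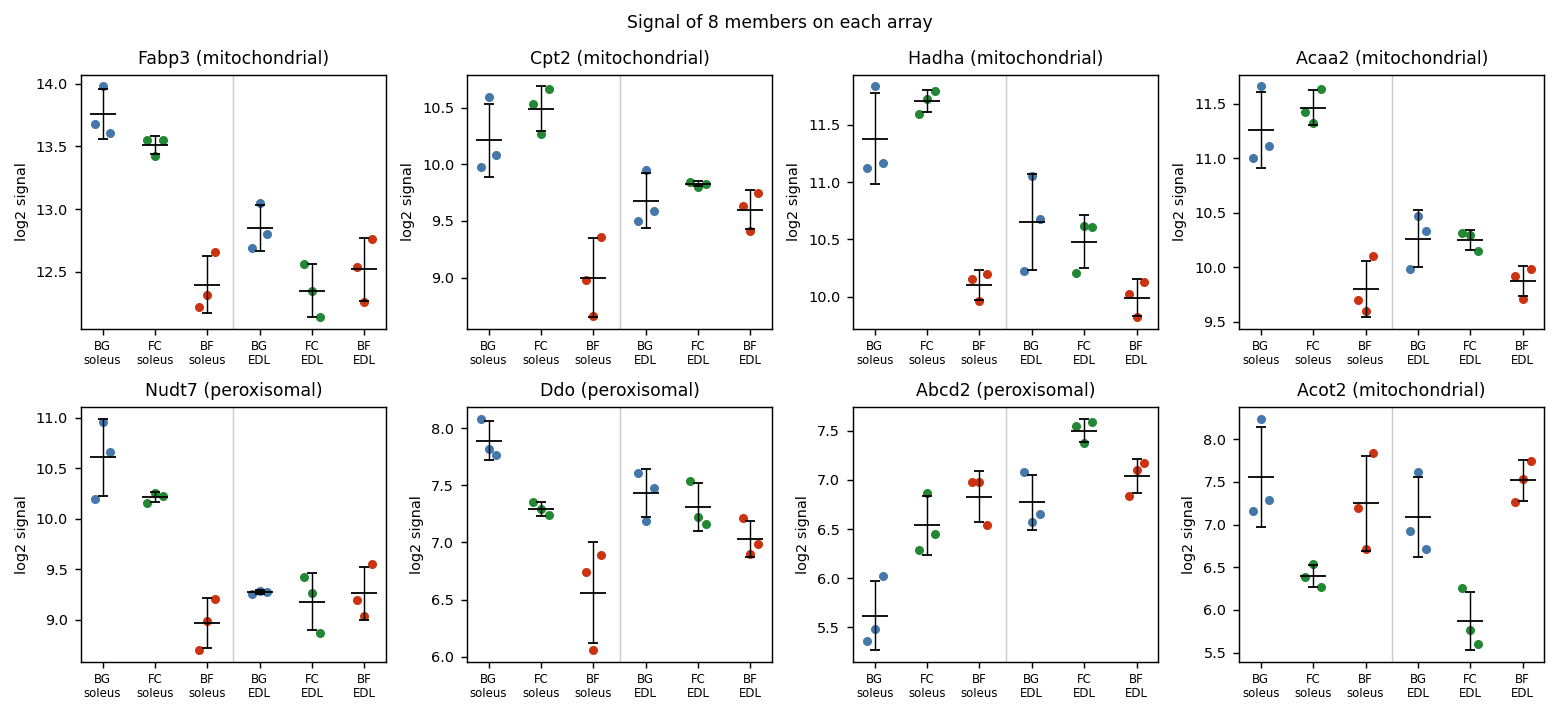
Log2 signal of 8 members on each array, by muscle and condition, each panel with its own axis. Points are arrays, and the bar and whiskers are the mean and SD of 3 arrays. Fabp3, Cpt2, Hadha, Acaa2, Nudt7 and Ddo are lowest in BF soleus among the soleus groups with no overlap, Abcd2 is lowest in BG soleus, and Acot2 is lowest in FC in both muscles.

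The auxiliary enzymes that prepare unsaturated chains fell together. Eci1, an enoyl-CoA isomerase, changed by -0.81 ± 0.18 against BG, Ech1, a dienoyl-CoA isomerase, by -0.78 ± 0.14, and Decr1, the dienoyl-CoA reductase, by -0.71 ± 0.19. Against FC the changes were -0.63, -0.62 and -0.63, and all 6 passed. The electron transfer flavoprotein takes the electrons of the dehydrogenases to the respiratory chain. Its alpha subunit gene Etfa read 11.20, 11.58 and 11.72 in BF soleus, 12.28, 12.49 and 12.34 in BG, and 11.95, 11.83 and 11.99 in FC. FC lay between the flown and the BG arrays here, and Etfa passed in all 3 soleus comparisons, with -0.87 ± 0.12 for BF vs. BG, -0.42 ± 0.12 for BF vs. FC and -0.45 ± 0.12 for FC vs. BG. Etfb, the beta subunit, changed by -0.45 ± 0.11 and -0.35 ± 0.11 against BG and FC. Etfdh, the oxidoreductase that receives the electrons, read 10.52, 10.61 and 11.26 in BF, 11.58, 12.02 and 11.64 in BG, and 11.39, 11.22 and 11.49 in FC. BF replicate 3 of Etfdh reached the FC range, and the changes were -0.95 ± 0.17 and -0.57 ± 0.17.

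Acot2, a thioesterase of the mitochondrial matrix that splits acyl-CoA into free acid and coenzyme A, did not share this pattern. In soleus it read 7.20, 6.72 and 7.84 in BF, 7.16, 8.24 and 7.29 in BG, and 6.39, 6.54 and 6.27 in FC. In EDL it read 7.27, 7.53 and 7.75 in BF, 6.93, 7.62 and 6.72 in BG, and 6.26, 5.76 and 5.60 in FC. The FC arrays were the lowest in both muscles and overlapped neither the BF nor the BG arrays of the same muscle. BF vs. BG did not pass in either muscle (soleus -0.31, 95% interval -0.94 to 0.32, and EDL 0.43, interval -0.20 to 1.06). BF vs. FC passed in both, with 0.85 ± 0.30 in soleus (limma adjusted p = 0.0477) and 1.64 ± 0.30 in EDL (limma adjusted p = 0.00635), and FC vs. BG passed in soleus at -1.16 ± 0.30. The soleus call against FC was lost under several settings, among them leaving out BF soleus replicate 3 (log2 change 0.56). FC mice differ from BF and BG mice in food and housing. Another probe set, which Acot2 shares with its near-identical neighbour Acot1, changed by 0.51 for BF vs. FC in soleus.

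Of the 2 peroxisomal transporters, Abcd3, which brings in long and branched chains, fell and Abcd2, which brings in very long chains, rose. Abcd3 read 10.01, 9.96 and 10.13 in BF soleus, 10.46, 10.98 and 10.57 in BG, and 10.57, 10.66 and 10.72 in FC. Abcd2 read 6.98, 6.98 and 6.54 in BF, 5.36, 5.48 and 6.02 in BG, and 6.29, 6.87 and 6.45 in FC. For Abcd3 the flown arrays lay below all ground arrays, whereas for Abcd2 the BG arrays lay below all others and BF overlapped FC. Abcd2 was 2.32-fold higher than BG (limma adjusted p = 4.36e-04), did not pass against FC (0.29, 95% interval -0.11 to 0.70), and was 1.89-fold higher in FC than in BG (limma adjusted p = 0.00658).

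Among the enzymes of peroxisomal beta-oxidation, Amacr, the racemase that makes branched chains fit for oxidation, read 7.74, 7.05 and 7.75 in BF soleus, 8.65, 8.91 and 8.80 in BG, and 8.56, 8.64 and 9.01 in FC. It was 2.42-fold lower than BG (limma adjusted p = 1.29e-04) and 2.34-fold lower than FC, and its BF arrays were also below all 9 EDL arrays. Hsd17b4, the D-bifunctional protein, changed by -0.41 (95% interval -0.77 to -0.05, limma adjusted p = 0.0902) and did not pass. Acaa1a, a peroxisomal thiolase, changed by 0.08 (interval -0.22 to 0.39). For both genes another probe set gave a different answer: -1.25 for Hsd17b4 and -1.08 for Acaa1a, each passing for BF vs. BG. With the mean of its own probe sets, Acaa1a changed by -0.50 (limma adjusted p = 0.0277), the reverse of the sign above. Acaa1a shares 2 further probe sets with its near-identical copy Acaa1b, and the probe set that names Acaa1b alone rose by 0.96, so the thiolase genes are uncertain here.

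Nudt7, which breaks down coenzyme A in peroxisomes, had the largest fall against BG on the probe sets used. It read 8.70, 8.99 and 9.21 in BF soleus, 10.20, 10.96 and 10.66 in BG, and 10.16, 10.26 and 10.23 in FC. It was 3.12-fold lower than BG (limma adjusted p = 2.73e-05) and 2.37-fold lower than FC (limma adjusted p = 1.72e-04), with no overlap. A dim further probe set of Nudt7, with a mean signal of 5.07, changed by 0.04, and further probe sets of Lpl (-2.17) and Acaa2 (-2.16) fell by more than that of Nudt7. Crat, the carnitine acetyltransferase of peroxisomes and mitochondria, changed by -0.37 against BG (95% interval -0.66 to -0.09, limma adjusted p = 0.0575) and passed against FC at -0.40 ± 0.14.

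The other peroxisomal enzymes fell. Cat, whose promoter holds the repeat shown above, read 9.86, 10.52 and 10.18 in BF soleus, 10.82, 11.56 and 11.10 in BG, and 10.60, 10.90 and 11.12 in FC. Its lowest ground array lay just above its highest flown array, and the changes were -0.97 ± 0.22 and -0.68 ± 0.22. Ddo, the D-aspartate oxidase, read 6.74, 6.06 and 6.89 in BF, 8.08, 7.82 and 7.76 in BG, and 7.35, 7.29 and 7.24 in FC. The 3 soleus groups of Ddo did not overlap, and all 3 comparisons passed: -1.32 ± 0.18 for BF vs. BG, -0.73 ± 0.18 for BF vs. FC and -0.60 ± 0.18 for FC vs. BG. Ephx2, the soluble epoxide hydrolase, read 8.34, 8.63 and 8.78 in BF, 9.41, 10.25 and 9.58 in BG, and 9.81, 9.67 and 9.98 in FC, a fall of 2.24-fold against BG and 2.36-fold against FC. Dhrs4, a carbonyl and retinal reductase, changed by -0.94 ± 0.16 and -1.01 ± 0.16, and Pex11a, a factor of peroxisome division, by -0.60 ± 0.20 and -0.67 ± 0.20, and both passed against each ground group.

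Between the 2 ground housings, 3 of the 31 members passed as lower and 1 as higher in soleus. For FC vs. BG in soleus, Etfa and Acot2 of the mitochondrial set and Ddo of the peroxisomal set passed as lower and Abcd2 as higher, where 4.03% of all genes passed as lower and 5.78% as higher. The medians were -0.13 and 0.01. Without BG soleus replicate 2, 1 member passed as higher and none as lower, and the count also fell to 1 without FC soleus replicate 1 or 2 and to 2 without BG soleus replicate 3 or FC soleus replicate 3.

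In EDL, no member passed for BF vs. BG, where 0.266% of all genes passed as higher and 0.113% as lower. At an unadjusted p under 0.05, 1 member was higher (Cd36) and 4 were lower (Hadha, Acaa2, Ddo and Pex11a), where 5.39% of all genes were higher and 6.72% lower at that threshold, and ordinary contrasts also gave 0 at the adjusted threshold. The medians were -0.08 for the mitochondrial and 0.01 for the peroxisomal set. Hadha read 10.02, 9.82 and 10.13 in BF EDL, 10.22, 11.05 and 10.68 in BG EDL, and 10.21, 10.62 and 10.61 in FC EDL. The flown arrays of Hadha lay below both ground groups in EDL too, but its change, -0.66 with a 95% interval of -1.09 to -0.24, did not pass (limma adjusted p = 0.184). Over the 31 members the 95% intervals of the EDL change ran from -1.09 to 1.06, so changes of the size seen in soleus lie within the reach of some of them.

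For BF vs. FC in EDL, 2 mitochondrial members passed as higher, Acot2 (above) and Cd36, and none as lower, where 1.02% of all genes passed as higher and 2.52% as lower. Cd36 read 11.48, 11.51 and 11.45 in BF EDL, 11.00, 11.40 and 10.98 in BG EDL, and 10.93, 10.71 and 10.60 in FC EDL. On this probe set the flown arrays in EDL were above all ground arrays, the reverse of their place in soleus. The change of Cd36 against FC in EDL was 0.74 ± 0.16 (limma adjusted p = 0.0152). Without FC EDL replicate 2 or replicate 3, 1 member passed. For FC vs. BG in EDL no member passed, where 0.0242% of all genes passed as higher and 0.00807% as lower. At an unadjusted p under 0.05 there was 1 higher and 4 lower, where 5.74% of all genes were higher and 5.33% lower, and ordinary contrasts gave 0 as well.

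**Figure D3:**
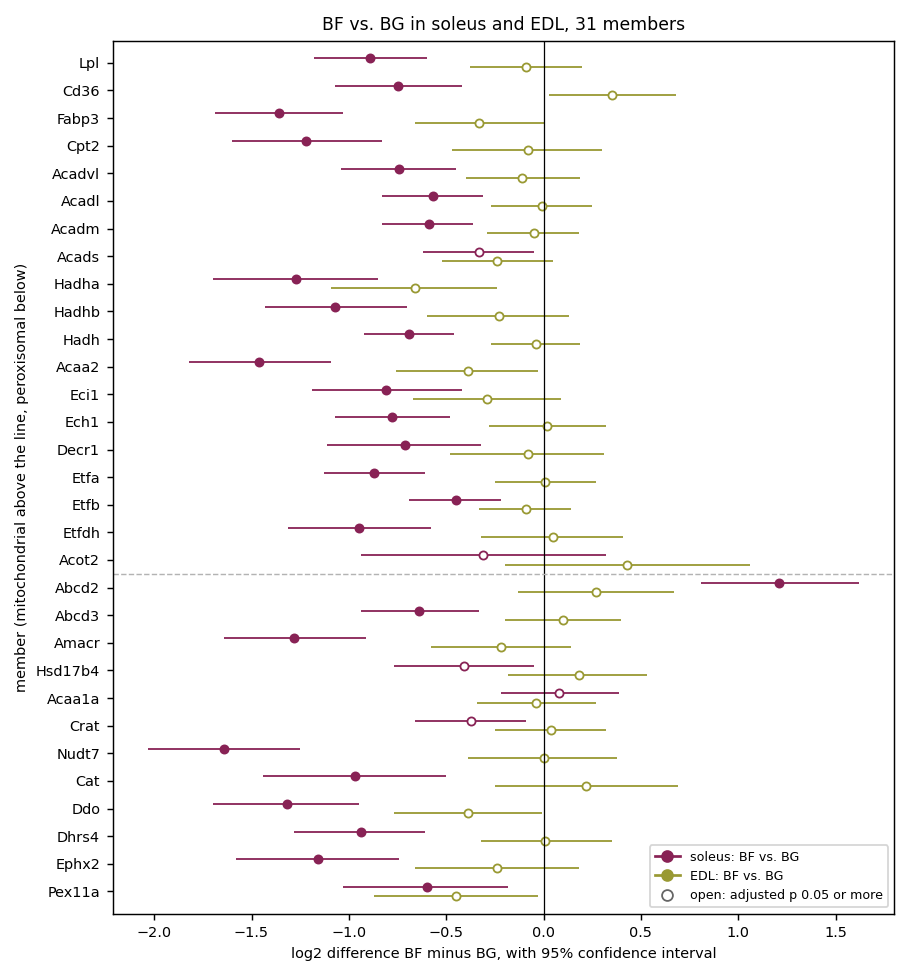
Log2 difference of BF minus BG with its 95% confidence interval for each of the 31 members, in soleus and in EDL, 3 arrays a group. Filled points passed at an adjusted p under 0.05. In soleus 26 members passed, 25 of them lower and Abcd2 higher, and in EDL none did.

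The change between BF and BG was set against itself in the 2 muscles. As the soleus change minus the EDL change, 11 mitochondrial members passed as more negative in soleus and none as more positive, with a median of -0.74. In the peroxisomal set 6 passed as more negative and 1, Abcd2, as more positive, with a median of -0.83. Among all genes 5.04% passed as more negative and 4.21% as more positive. On the probe sets used, Nudt7 had the largest difference, -1.64 ± 0.26 (limma adjusted p = 0.00261), and in EDL it read 9.20, 9.04 and 9.55 in BF and 9.25, 9.28 and 9.27 in BG. Its EDL arrays of both groups overlapped while its soleus arrays did not. Cat followed with -1.19 ± 0.31, Cpt2 with -1.13 ± 0.26 and Cd36 with -1.10 ± 0.22. The difference of Abcd2, 0.94 ± 0.27 (limma adjusted p = 0.0399), was lost under several settings, among them ordinary contrasts and centring each array on its median. Of the members outside the study's lists 7 of 15 passed as more negative. The count of 18 passing members fell to 10 without BG soleus replicate 2, 10 without BF soleus replicate 1 and 9 without BG EDL replicate 3, and the medians without BG soleus replicate 2 were -0.58 and -0.62.

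On the ground most mitochondrial members were higher in soleus than in EDL, and in BF none passed as higher. In BG, 15 of 19 mitochondrial members passed as higher in soleus and none as lower, with a median of 0.68, and in FC 18 did, with a median of 0.66. In BF 1 member, Cpt2, passed as lower, with a median of -0.05. Among all genes 8.3%, 8.0% and 5.79% passed as higher in soleus in BG, FC and BF, and 8.71%, 8.4% and 6.63% as lower. Acaa2 is an example, at 1.0 ± 0.17 in BG, 1.21 ± 0.17 in FC and -0.07 (95% interval -0.43 to 0.30) in BF. Fabp3 was 0.91 ± 0.16 and 1.16 ± 0.16 higher in soleus on the ground and -0.12 (interval -0.45 to 0.21) in BF. Over all 19 mitochondrial members the 95% intervals in BF ran from -0.99 to 0.55. Cpt2 ended below EDL, with BF soleus arrays at 8.98, 8.66 and 9.36 and BF EDL arrays at 9.63, 9.41 and 9.75 (-0.60 ± 0.18, limma adjusted p = 0.0431). Every BF soleus array of Cpt2 was below every BF EDL array, but the call was lost with ordinary contrasts, with the fixed replicate block and without several single arrays, among them BF soleus replicate 2 (log2 difference -0.43). Without BG soleus replicate 2, 14 members of both sets together passed as higher in BG and 1 as lower, against 20 and 1 with it. Without FC EDL replicate 3, 17 passed as higher in FC and 1 as lower, against 22 and 1.

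The peroxisomal set was more mixed between the muscles. In BG, 5 members passed as higher in soleus and Abcd2 as lower, with a median of 0.38. In FC 4 and Abcd2 did, with a median of 0.25, and in BF none passed as higher and Amacr as lower, with a median of -0.25. Cat, Dhrs4, Ephx2 and Nudt7 led in soleus in both ground groups. Dhrs4 was higher in soleus by 1.39 ± 0.16 in BG and 1.54 ± 0.16 in FC, and its ground soleus and EDL arrays were far apart, with EDL between 7.72 and 8.23. In BF it was 0.43 (95% interval 0.10 to 0.77, limma adjusted p = 0.0819). Amacr differed little between the muscles on the ground (0.16 in BG and -0.05 in FC) and was -0.89 ± 0.17 in BF (limma adjusted p = 0.00506). Abcd2 was -1.15 ± 0.19 in BG and -0.97 ± 0.19 in FC, so this transporter favoured EDL where most members favoured soleus, and in BF it was -0.21 (interval -0.61 to 0.20). Whether the 2 sets differ in these counts was not tested.

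**Figure D4:**
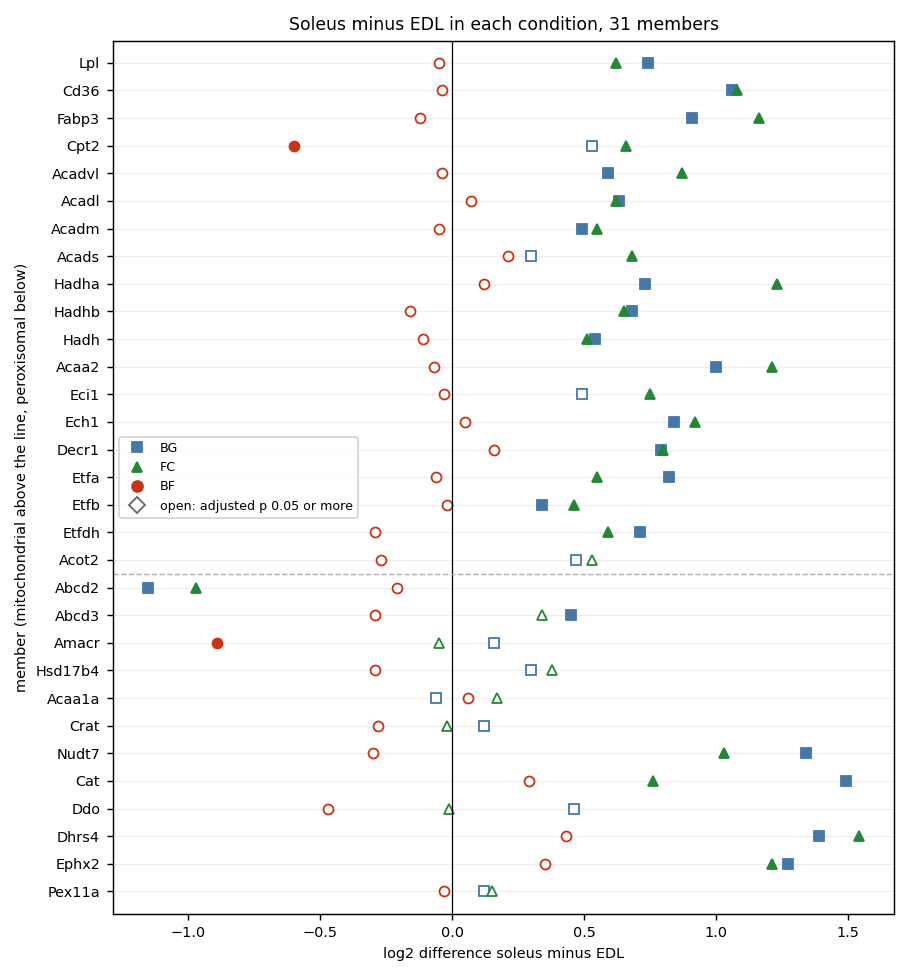
Log2 difference of soleus minus EDL for each of the 31 members in BG (squares), FC (triangles) and BF (circles), from 3 arrays a group. Filled symbols passed at an adjusted p under 0.05. Ground symbols of the mitochondrial members lie to the right of 0, with medians of 0.68 and 0.66, and BF circles lie around 0, with a median of -0.05.

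Fibre markers moved in the same soleus arrays. The mean of the 10 slow fibre markers was 12.44 to 12.95 in BF soleus against 13.49 to 13.55 in BG and 13.43 to 13.49 in FC. For BF vs. BG all 10 lay below 0 and 1, Casq2, passed as lower (-2.06 ± 0.18). That count was not above the share of all genes, of which 12.3% passed as lower and 11.1% as higher. The mean of 12 fast fibre markers was 13.38 to 13.86 in BF soleus, 12.28 to 12.98 in BG and 12.32 to 12.83 in FC, and 6 passed as higher, with Actn3 up by 4.43 and Myh4 by 4.26. Of 13 macrophage markers, 3 passed as higher, Cd68 (3.40), Fcgr1 (0.61) and Aif1 (0.49). Against FC 2 macrophage markers passed as higher and 1 as lower, with a median of 0.03. There 9.02% of all genes passed as higher and 16.0% as lower. In EDL none of these fibre, adipocyte, endothelial or macrophage markers passed for BF vs. BG, where 0.266% of all genes passed as higher and 0.113% as lower. The adipocyte mean was nevertheless 7.82 to 8.36 in BF EDL, 7.39 to 7.80 in BG EDL and 7.82 to 8.53 in FC EDL. For BF vs. BG in EDL, 8 of the 10 adipocyte markers lay above 0 and 2 below. The part of fibre type or of other cells in the fall of the members was not tested. Without BG soleus replicate 2, 1 slow fibre marker passed as lower, and 4 fast fibre and 2 macrophage markers as higher.

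Further genes of the same pathways and of those that follow them were counted for BF vs. BG in soleus. There 12.3% of all genes passed as lower and 11.1% as higher. Of 30 other measured fatty acid genes, not all of them mitochondrial, 11 passed as lower and 3 as higher, with a median of -0.22. Acad11, an acyl-CoA dehydrogenase for longer chains, changed by -1.04 ± 0.15, Mgll, the monoglyceride lipase, by -0.96 ± 0.18, and Mcee, the methylmalonyl-CoA epimerase, by -0.88 ± 0.19. Lipe, the hormone-sensitive lipase of fat cells and muscle, rose by 0.85. Of 37 other peroxisomal genes, 9 passed as lower and 2 as higher, with a median of -0.11. Acaa1b, named above, had the largest change of those that passed and rose by 0.96 ± 0.19. Gnpat, which begins ether lipid synthesis, changed by -0.93 ± 0.11, Scp2, a thiolase and sterol carrier, by -0.88 ± 0.28, and Phyh, which starts alpha-oxidation of branched chains, by -0.75 ± 0.12. Of 17 tricarboxylic acid cycle genes 12 passed as lower and none as higher (median -0.43), led by Idh2 (-1.82 ± 0.17), and of 37 respiratory chain genes 20 passed as lower and none as higher (median -0.30), led by Ndufb10 (-0.87 ± 0.11). Without BG soleus replicate 2 the counts as lower were 5 of these other fatty acid genes, 6 of the other peroxisomal genes, 9 of the cycle and 10 of the respiratory chain. As higher, 2 of the other fatty acid genes and 1 other peroxisomal gene then passed. In all of these lists none passed for BF vs. BG in EDL, where 0.266% of all genes passed as higher and 0.113% as lower.

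Of 24 measured regulators of fatty acid oxidation, 8 passed as lower and 4 as higher for BF vs. BG in soleus, with a median of -0.17. The shares of all genes in this comparison were 12.3% as lower and 11.1% as higher. Ppara had the largest change. It read 7.77, 7.63 and 7.73 in BF soleus, 10.35, 8.96 and 10.01 in BG, and 9.65, 9.95 and 10.08 in FC. The flown arrays were tightly grouped and far below all ground arrays (-2.06 ± 0.27, limma adjusted p = 1.12e-04). Ppargc1a read 9.40, 9.68 and 8.82 in BF, 11.85, 9.83 and 11.03 in BG, and 10.05, 10.28 and 10.14 in FC, so that BG replicate 2 came close to the flown arrays (-1.60 ± 0.34). Ppargc1b, the gene of the related coactivator PGC-1 beta, read 7.54, 7.12 and 7.60 in BF, 8.20, 8.80 and 8.70 in BG, and 8.84, 8.71 and 8.80 in FC (-1.15 ± 0.20). Prkag2, a regulatory subunit of AMP-activated protein kinase, rose by 1.15 ± 0.27. BG soleus replicate 2 had the lowest Ppara and Ppargc1a and the highest Ppargc1b of its group. Without it, 7 regulators passed as lower and 3 as higher. Ucp3, the muscle uncoupling protein, read 8.50, 7.63 and 8.95 in BF soleus and 7.95, 8.68 and 8.88 in BG soleus, and the groups overlapped. In EDL it read 9.02, 8.71 and 9.13 in BF, 10.13, 9.43 and 10.49 in BG, and 8.14, 8.83 and 8.52 in FC. The BF EDL arrays of Ucp3 lay below the BG arrays and overlapped the FC arrays, and the change against BG did not pass.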

How the data were processed

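RNA of soleus and EDL was hybridised to 18 Affymetrix mouse arrays, 3 for each muscle of BF, BG and FC, grouped by the deposited titles. In the deposited descriptions, BF EDL replicates 2 and 3 are tied to Bion M2 and Bion M3, unlike all remaining BF samples (Bion M1), and their titles were followed. The authors made the deposited log2 signals with RMA in Partek (background correction, quantile normalization, median polish). Quantile normalization gives all arrays the same distribution, so a shift shared by all genes would not be seen. The table has 22690 probe sets. After removal of 64 controls, 22626 were tested, at any signal. By the platform annotation 20380 name 1 gene, giving 12393 genes. The number of arrays limits the precision. Because nothing in the labels ties the replicate numbers to single animals, p-values measure the spread between these arrays.

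A linear model with 6 group means was fitted with limma 3.58.1 in R 4.3.3 (12 residual and 5.1 prior degrees of freedom), with Benjamini-Hochberg adjustment over every tested probe set. The SE and 95% intervals are those of the fit. The methods' one-way analysis without moderation, other thresholds, array weights, blocks, centring, a filter on dim probe sets, fits within a muscle, other probe sets and leaving out each array were alternatives. The fit was tested on simulated data. Tables, motif counts and figures used Python 3.11.15, pandas 2.3.3, numpy 2.4.6 and matplotlib 3.10.9. Promoters are RefSeq's on GRCm38.p6. No replicate number pairs BF with BG or FC. Same-numbered arrays of soleus and EDL deviated together only in FC (correlations 0.16 to 0.37), where a random block for condition and number left 23 members passing. The members and gene lists were chosen with earlier results of these data known. All 32 members are named, and of each other list up to 4 genes that passed with the largest BF vs. BG change in soleus, beside Ppara, Ppargc1a, Ppargc1b and Ucp3.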

Additional observations from a re-analysis of the deposited data

Results flagged for a closer look

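For 18 members the BF vs. BG change differed between soleus and EDL by the interaction in the limma fit (adjusted p under 0.05), and the values below are the log2 change of soleus minus that of EDL. The fatty acid uptake genes gave -0.79 for Lpl, -1.10 for Cd36 and -1.03 for Fabp3. Of the mitochondrial enzymes, Cpt2 gave -1.13, Acadm -0.54, Hadhb -0.83, Hadh -0.65, Acaa2 -1.06 and Ech1 -0.79. The electron transfer genes gave -0.88 for Etfa and -1.0 for Etfdh. In the peroxisomal set Abcd3 gave -0.74, Amacr -1.06, Nudt7 -1.64, Cat -1.19, Ddo -0.93 and Dhrs4 -0.96. Abcd2 alone among the 18 had a more positive change in soleus, at 0.94. With ordinary contrasts of the one-way model 13 of the 31 members passed this test, all more negative in soleus.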

How the results depend on the processing

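Counts are of members passing, and the share of all genes was not counted under the alternatives in this section. With a change over 2-fold also asked for, whether with the adjusted or the unadjusted p, 10 members passed for BF vs. BG in soleus, 8 for BF vs. FC and 1 for FC vs. BG, 1 for BF vs. FC in EDL, 6, 7 and 0 for soleus vs. EDL in BG, FC and BF, and 7 for the muscle difference, and the unadjusted p gave 1 for FC vs. BG in EDL. FC vs. BG in soleus gave 2 with ordinary contrasts and 2 in the fit within soleus alone. Soleus vs. EDL in BF gave 1 with ordinary contrasts. Array weights gave 4 for BF vs. FC in EDL, 1 for FC vs. BG in EDL and 4 for soleus vs. EDL in BF, where the peroxisomal median became -0.08. The replicate block, with number as a fixed block within each muscle, gave 1 for soleus vs. EDL in BF and 25 for BF vs. BG in soleus, and moved no other count by over 1.5 times. The pairing check gave correlations of same-numbered arrays from -0.06 to 0.24 within soleus and from -0.13 to 0.30 within EDL. Arrays with different numbers gave -0.24 to 0.12 within soleus and -0.32 to 0.22 within EDL. Acaa1a reversed to -0.50 in soleus, BF vs. BG, with the mean of its own probe sets, and another of them alone changed by -1.08.

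Leaving out each array in turn, the count of members passing ran from 24 to 27 for soleus, BF vs. BG, 18 to 27 for soleus, BF vs. FC, 1 to 4 for soleus, FC vs. BG, 0 throughout for EDL, BF vs. BG, 1 to 2 for EDL, BF vs. FC, 0 throughout for EDL, FC vs. BG, 15 to 23 for soleus vs. EDL in BG, 18 to 23 for soleus vs. EDL in FC, 1 to 4 for soleus vs. EDL in BF and 9 to 20 for the muscle difference. The count of 4 for soleus vs. EDL in BF came without BF soleus replicate 3, and it was 1 without BF soleus replicate 1 or 2, BF EDL replicate 1 or 3, and several arrays of other groups. The mitochondrial medians, in the same order, ran from -0.88 to -0.63, -0.71 to -0.56, -0.22 to -0.01, -0.17 to -0.01, 0.04 to 0.20, -0.24 to -0.10, 0.49 to 0.75, 0.58 to 0.74, -0.12 to 0.00 and -0.87 to -0.58. The peroxisomal medians, in the same order, ran from -0.88 to -0.63, -0.75 to -0.53, -0.10 to 0.13, -0.10 to 0.07, -0.20 to -0.12, -0.03 to 0.18, 0.22 to 0.43, 0.21 to 0.30, -0.28 to -0.14 and -0.89 to -0.62.

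Of 8246 values of single members under the alternatives, 7942 kept their side of the threshold, 238 lost the call, 65 gained it and 1 reversed. Direction was compared only where a member passed in the reported fit or under the alternative. Changes of sign among values that passed in neither were not counted. Of 532 medians 9 moved by over the spread between arrays. Arrays carry no read depth. The causes of these differences were not tested.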
